A study of Mus musculus with 8 samples.

Results

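The genes described here are 58 mouse genes for ribosome biogenesis and RNA polymerase I, chosen by name from 54838 genes in the count table. They fall into 5 roles: 8 genes for RNA polymerase I and its factors, 7 core proteins of small nucleolar ribonucleoproteins (snoRNPs), 20 factors of the small ribosomal subunit, 18 factors of the large subunit and 5 other nucleolar proteins. All 58 passed the filter on low counts, which kept 19101 genes in all. The cells were induced pluripotent stem cells of a male mouse, named ESC in the sample labels, and their poly(A) RNA was read in 4 states with 2 libraries each. Mitotic cells were collected by shake-off after 6 h with 200 ng/ml nocodazole, which halts cell division by blocking microtubule growth. Early G1 cells were mitotic cells plated without the drug for 1 h, and late G1 cells were plated for 3 h. Asynchronous cells were a cycling population. Per the labels, all 4 states came from cultures on irradiated feeder cells with serum, LIF and inhibitors of MEK and GSK3, and cells were moved to gelatin before synchronisation. Per the labels, 2 independent clones were the biological replicates. The labels do not say that a replicate number marks a clone, so what the spread between 2 libraries covers is not known. The p-values rest on the spread within states, pooled over all 4 states and steadied by that of other genes. The extraction protocol in the labels names asynchronous cells only.

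Ribosomes are built mainly in the nucleolus. RNA polymerase I copies the ribosomal DNA into a long precursor RNA, small nucleolar RNAs guide chemical marks and cuts on it, and a large set of assembly factors folds and trims it into the small and the large subunit. In mitosis RNA polymerase I transcription stops and the nucleolus comes apart, and both return as cells enter G1. Fast-growing cells such as pluripotent stem cells make many ribosomes. The present data count poly(A) messenger RNA of the factors, and hold no measure of ribosomal RNA.

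Total counts ran from 20410621 to 25615244 per library, and the 58 genes took between 1.74% and 1.79% of the counts in the 6 mitotic and G1 libraries, against 1.27% and 1.35% in the 2 asynchronous libraries. CPM, the unit of all levels below, is the count of a gene relative to its library's total after TMM scaling, and 3 counts correspond to between 0.116 and 0.152 CPM. Such floors cover counting error only. A gene is called at an adjusted p under 0.05 in edgeR's quasi-likelihood test on all 8 libraries. All 10 markers of pluripotent cells were detected in every library. The 2 asynchronous libraries differed from each other more than the others did, with a biological coefficient of variation of 0.292, against 0.183 for mitotic, 0.0506 for early G1 and 0.0417 for late G1 libraries.

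Of the 58 genes, 37 (63.8%) were higher in mitotic than asynchronous cells and 0 were lower. Over all genes tested, 18.3% were higher and 22.4% lower in mitotic cells. The median change of the 58 genes was 0.52 on the log2 scale (a fold of 1.43), against -0.05 for all genes. Both mitotic libraries were above both asynchronous libraries in CPM for 44 of the 58 genes, against 30.9% of all genes tested. Noc2l and Gnl3 were the 2 genes with both mitotic libraries below both asynchronous ones, and neither was called. The share of all genes in that direction was not counted. With edgeR at an unadjusted p under 0.05, 42 genes were higher and 0 lower, while 9534 of all 19101 genes passed it in either direction. DESeq2 called 38 higher and 0 lower, against 17.1% and 18% of all genes it tested. The rises were mostly modest, and 5 genes passed 2-fold: Ddx21, Noc3l, Polr1b, Rrs1 and Nop2.

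**Figure D1:**
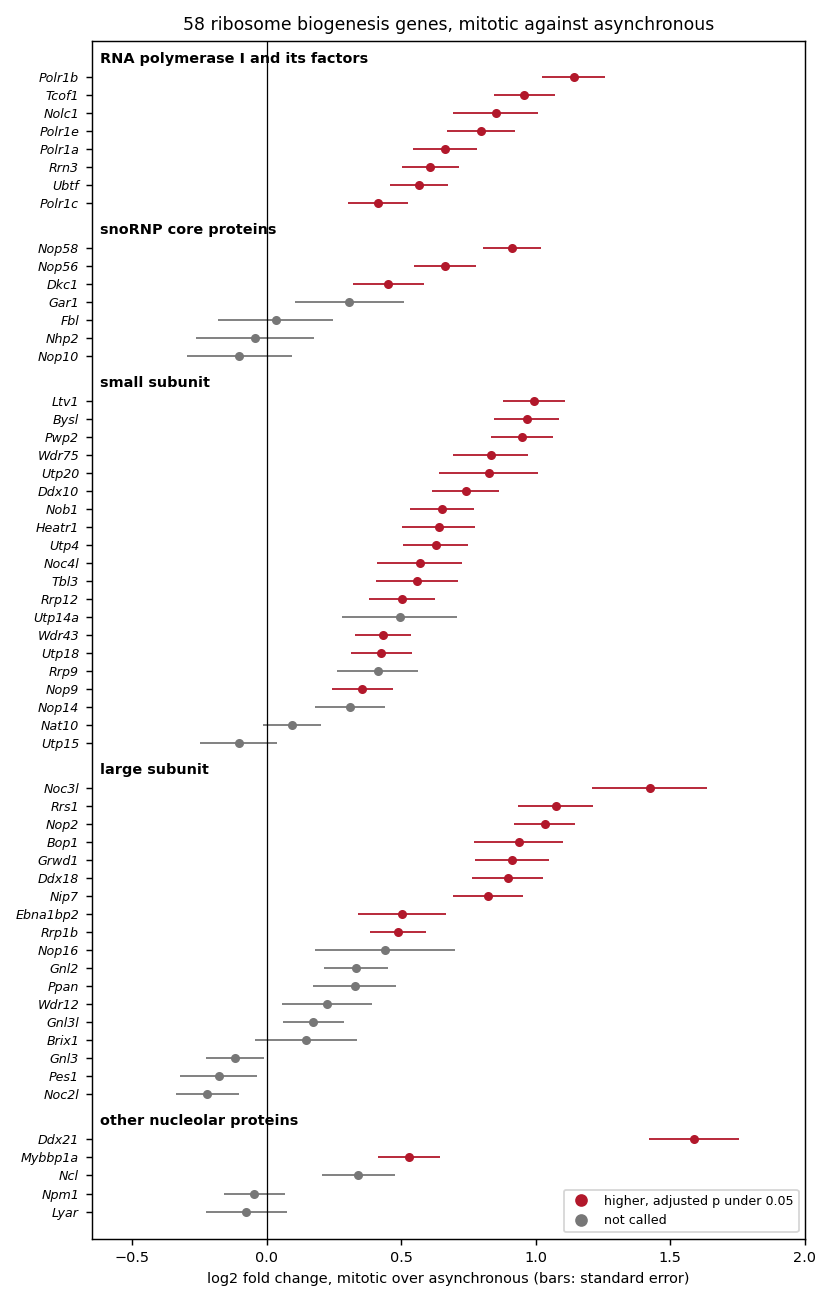
Log2 fold change of each of the 58 genes, mitotic over asynchronous, on a single axis with the genes under 5 role headings. Points give the estimate of edgeR over n = 2 libraries a state and bars its standard error. Red points (37 genes) were called higher at an adjusted p under 0.05 and grey points (21 genes) were not called, with Ddx21 farthest right at 1.59 and Noc2l farthest left at -0.22.

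The summed level of the 58 genes was 18242 and 18095 CPM in mitotic cells, 17306 and 17306 CPM in early G1, 17499 and 17704 CPM in late G1, and 12241 and 13976 CPM in asynchronous cells. The 6 libraries of mitotic and G1 cells lay close together, and both asynchronous libraries lay below all of them. In bulk samples, fewer cells of a type and less RNA per cell cannot be told apart. The asynchronous libraries also held RNA of feeder fibroblasts. All 14 tested of 15 feeder markers were lower in mitotic than asynchronous cells, and their summed level was 51.5 and 67.7 CPM in mitotic cells, 96.7 and 88.4 CPM in early G1, 57.4 and 47.5 CPM in late G1, and 1532 and 1470 CPM in asynchronous cells. Twist2, which marks fibroblasts, had 0 counts in 5 of the 6 mitotic and G1 libraries. Of 10 pluripotent markers 6 were higher and 1, Tdgf1, was lower in mitotic cells, and their summed level was 6924 and 7228 CPM in mitotic cells against 5581 and 7059 CPM in asynchronous cells. Of 12 macrophage markers 10 were tested and 5 were higher in mitotic cells, and the list's summed level was 323 and 341 CPM in mitotic cells against 240 and 309 CPM in asynchronous cells, most of it from Laptm5 and Cd68. Lyz2, a macrophage lysozyme, had 28.7 and 30.8 CPM in mitotic cells, 0.756 and 0.116 CPM in early G1, 0.0 and 0.0 CPM in late G1, and 9.44 and 14.7 CPM in asynchronous cells. The part of other cell types in the differences from asynchronous cells was not tested.

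All 8 genes for RNA polymerase I and its factors were higher in mitotic than asynchronous cells, with a median change of 0.73 (log2). Polr1a (ENSMUSG00000049553, chr6:71909053-71984935, GRCm38), which encodes the catalytic subunit, had 279 and 241 CPM in mitotic cells, 266 and 275 CPM in early G1, 294 and 289 CPM in late G1, and 171 and 157 CPM in asynchronous cells. Polr1b (chr2:129100995-129126594), the second largest subunit, had 192 and 194 CPM in mitotic cells, 198 and 199 CPM in early G1, 196 and 186 CPM in late G1, and 81.7 and 93.1 CPM in asynchronous cells. Both subunits stood at similar levels in mitotic and G1 libraries and were lower in both asynchronous libraries, with no overlap. Polr1b had the larger change, 1.14 ± 0.12 (log2 ± SE, mitotic over asynchronous, adjusted p = 3.35e-04), and Polr1a changed by 0.66 ± 0.12 (adjusted p = 0.00362). Polr1e (chr4:45018583-45036565), a subunit that works in starting and extending the transcript, had 54.1 and 61.3 CPM in mitotic cells, 59.0 and 60.7 CPM in early G1, 68.1 and 73.4 CPM in late G1, and 32.0 and 34.4 CPM in asynchronous cells. Its 2 late G1 values were the highest and its 2 asynchronous values the lowest, and mitotic cells exceeded asynchronous cells by 0.80 ± 0.13 (log2, adjusted p = 0.00222). Polr1c (chr17:46243920-46248054), a subunit shared with RNA polymerase III, had 174 and 169 CPM in mitotic cells, 167 and 159 CPM in early G1, 153 and 157 CPM in late G1, and 123 and 134 CPM in asynchronous cells. Its change was the smallest of the 8, 0.41 ± 0.11 (log2, adjusted p = 0.0192), and its order ran from mitotic through early and late G1 down to asynchronous cells, with the early and late G1 values close together.

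Rrn3 and Ubtf are transcription factors of the polymerase. Rrn3 (chr16:13780708-13814839), which lets RNA polymerase I engage the promoter, had 282 and 274 CPM in mitotic cells, 259 and 268 CPM in early G1, 265 and 274 CPM in late G1, and 184 and 180.4 CPM in asynchronous cells. Both mitotic values lay above the 4 G1 values, which overlapped each other, and the asynchronous values lay far below, for a change of 0.61 ± 0.11 (log2, mitotic over asynchronous, adjusted p = 0.00308). Ubtf (chr11:102304560-102319742), which binds along the ribosomal DNA, had 569 and 531 CPM in mitotic cells, 415 and 421 CPM in early G1, 383 and 377 CPM in late G1, and 360.1 and 383 CPM in asynchronous cells. Its mitotic values were the highest, and by late G1 it stood at the asynchronous level: mitotic cells exceeded asynchronous cells by 0.57 ± 0.11 (adjusted p = 0.00449), and the late G1 difference from asynchronous cells was 0.03 ± 0.11 (log2, adjusted p = 0.824). Tcof1 encodes treacle, a nucleolar cofactor of the polymerase, and had 589 and 519.7 CPM in mitotic cells, 564 and 565 CPM in early G1, 592 and 573 CPM in late G1, and 279 and 292 CPM in asynchronous cells. Nolc1, a nucleolar phosphoprotein that binds the polymerase and snoRNPs, had 649 and 666 CPM in mitotic cells, 633 and 631 CPM in early G1, 696 and 702 CPM in late G1, and 305 and 425 CPM in asynchronous cells. In both genes the asynchronous values lay below all 6 others, and in Tcof1 the mitotic values enclosed both early G1 values. Their changes were 0.96 ± 0.11 and 0.85 ± 0.16 (log2, mitotic over asynchronous, adjusted p = 6.20e-04 and 0.00395). Per kilobase of the annotated transcript with the longest reading frame, the mean level over the 8 libraries was 162 CPM for Nolc1. It was 131 CPM for Ubtf, 118 for Polr1c, 108 for Tcof1, 69.3 for Rrn3, 41.8 for Polr1b, 32.1 for Polr1e and 26.7 for Polr1a.

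**Figure D2:**
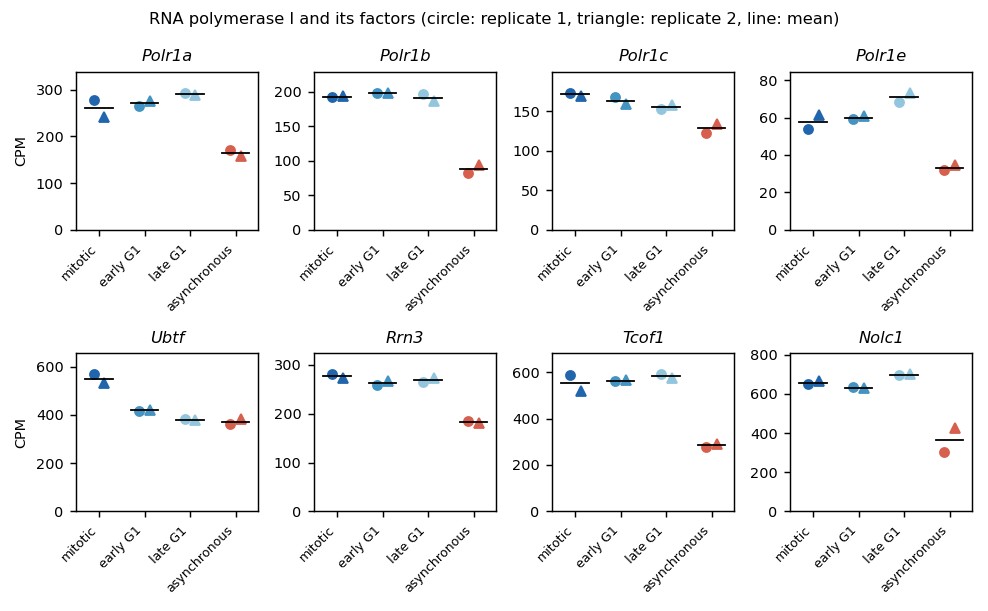
CPM of the 8 genes for RNA polymerase I and its factors in each library (circles replicate 1, triangles replicate 2, lines the mean of n = 2), with mitotic, early G1, late G1 and asynchronous cells from left to right and linear axes that start at 0. In 7 panels the asynchronous points lie below all others, while Ubtf has 569 and 531 CPM in mitotic cells and reaches 383 and 377 CPM in late G1, beside 360.1 and 383 CPM in asynchronous cells.

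Of the 7 snoRNP core proteins 3 were called higher in mitotic than asynchronous cells and 0 lower, with a median change of 0.31 (log2). Nop56 and Nop58 are the paired scaffold proteins of the box C/D particles, which guide methylation of ribosomal RNA. Nop56 had 657 and 589.5 CPM in mitotic cells, 528 and 522 CPM in early G1, 524 and 516 CPM in late G1, and 376 and 412 CPM in asynchronous cells. Nop58 had 621 and 602 CPM in mitotic cells, 619 and 638 CPM in early G1, 647 and 674 CPM in late G1, and 337 and 313 CPM in asynchronous cells. Neither gene's asynchronous values overlapped the rest, and mitotic cells exceeded asynchronous cells by 0.66 ± 0.11 and 0.91 ± 0.11 (log2, adjusted p = 0.00302 and 6.10e-04). Fbl encodes fibrillarin, the methyltransferase of the same particles, and had 57.6 and 68.9 CPM in mitotic cells, 62.9 and 56.2 CPM in early G1, 51.8 and 54.7 CPM in late G1, and 47.7 and 76.2 CPM in asynchronous cells. Its 2 asynchronous values enclosed all 6 others, and its change was 0.03 ± 0.21 (log2, adjusted p = 0.913).

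The other 4 core proteins form the box H/ACA particles, which guide the change of uridine to pseudouridine. Dkc1, the enzyme of these particles, had 297 and 291 CPM in mitotic cells, 371 and 379 CPM in early G1, 419 and 421 CPM in late G1, and 239.8 and 189.8 CPM in asynchronous cells. Its level was higher in mitotic than asynchronous cells by 0.45 ± 0.13 (log2, adjusted p = 0.0264) and was highest in late G1. Nhp2 had 366 and 402 CPM in mitotic cells, 282 and 263 CPM in early G1, 289 and 295 CPM in late G1, and 292 and 499 CPM in asynchronous cells. Nop10 had 95.4 and 115 CPM in mitotic cells, 82.7 and 76.3 CPM in early G1, 88.6 and 94.5 CPM in late G1, and 90.0 and 136 CPM in asynchronous cells. Gar1 had 106 and 127 CPM in mitotic cells, 106 and 97.7 CPM in early G1, 103 and 103 CPM in late G1, and 73.7 and 115 CPM in asynchronous cells. These 3 partners of Dkc1 had an asynchronous replicate 2 far above replicate 1, and in each the mitotic and asynchronous groups overlapped. Their changes were -0.04 ± 0.22, -0.10 ± 0.20 and 0.31 ± 0.20 (log2, mitotic over asynchronous, adjusted p = 0.888, 0.704 and 0.253). The direction of Nhp2 rested on 1 library: it was -0.37 without asynchronous replicate 1 and 0.39 without asynchronous replicate 2.

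Of 20 factors of the small subunit, 15 were higher in mitotic cells and 0 lower, with a median change of 0.56 (log2). The genes are given here by complex. Heatr1, Utp4, Wdr43 and Wdr75 belong to the UTP-A complex, the first to bind the nascent precursor, and were called with changes of 0.64, 0.63, 0.43 and 0.83. Their partner Utp15 was not called, at -0.10 ± 0.14 (adjusted p = 0.59). Pwp2, Tbl3 and Utp18 of the UTP-B complex, a further module of the early particle, were called at 0.95, 0.56 and 0.43. Of the late-acting factors of the small subunit, Bysl had a change of 0.97, Ltv1 of 0.99 and Nob1, the nuclease that makes the end of 18S RNA, of 0.65, and all 3 were called. Ltv1 had 128 and 132 CPM in mitotic cells, 120.2 and 131 CPM in early G1, 121 and 129 CPM in late G1, and 66.9 and 64.1 CPM in asynchronous cells. Its 2 asynchronous values lay far below the other 6, with no overlap (adjusted p = 5.70e-04 for mitotic over asynchronous). Nat10, which acetylates 18S RNA, had 176 and 168 CPM in mitotic cells, 177 and 181 CPM in early G1, 182 and 178 CPM in late G1, and 167 and 156 CPM in asynchronous cells. Its groups were close, and its change of 0.09 ± 0.11 was not called (adjusted p = 0.519). Utp14a, Rrp9 and Nop14 were also not called, with changes of 0.49, 0.41 and 0.31 (log2). The other 5 called genes of the small subunit were Utp20 at 0.82, Ddx10 at 0.74, Noc4l at 0.57, Rrp12 at 0.50 and Nop9 at 0.35.

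Of 18 factors of the large subunit, 9 were higher in mitotic cells and 0 lower, with a median change of 0.46 (log2). Noc3l, whose yeast counterpart works with that of Noc2l on moving the subunit through the nucleus, had 85.2 and 77.7 CPM in mitotic cells, 97.0 and 109 CPM in early G1, 109 and 114 CPM in late G1, and 37.7 and 23.0 CPM in asynchronous cells. Its asynchronous values lay far below the other 6, and it had the largest change of the group, 1.42 ± 0.21 (log2, mitotic over asynchronous, adjusted p = 0.00172). Noc2l had 322 and 341 CPM in mitotic cells, 288 and 276 CPM in early G1, 279 and 268 CPM in late G1, and 359 and 414 CPM in asynchronous cells. It was lowest in the G1 libraries and highest in asynchronous cells, with a mitotic change of -0.22 ± 0.12 (adjusted p = 0.167). Rrs1, whose yeast counterpart helps bring in the 5S particle, and Nop2, a methyltransferase of 28S RNA, changed by 1.07 ± 0.14 and 1.03 ± 0.11 (log2, mitotic over asynchronous, adjusted p = 9.38e-04 and 4.40e-04). Bop1, Pes1 and Wdr12 act together in the PeBoW complex of the large subunit. Bop1 had 228 and 238 CPM in mitotic cells, 237 and 221 CPM in early G1, 252 and 239.6 CPM in late G1, and 101 and 143 CPM in asynchronous cells. Pes1 had 164 and 165 CPM in mitotic cells, 142 and 135 CPM in early G1, 146 and 142 CPM in late G1, and 162 and 211 CPM in asynchronous cells. Wdr12 had 57.2 and 63.3 CPM in mitotic cells, 62.7 and 64.8 CPM in early G1, 64.3 and 66.5 CPM in late G1, and 43.2 and 60.1 CPM in asynchronous cells. Bop1 was called at 0.94 ± 0.17 (adjusted p = 0.00337), while Pes1 at -0.18 ± 0.14 and Wdr12 at 0.22 ± 0.17 were not (adjusted p = 0.343 and 0.31). Whether the 3 differ from each other was not tested. The other called genes of the large subunit were Grwd1 at 0.91, Ddx18 at 0.90, Nip7 at 0.82, Ebna1bp2 at 0.50 and Rrp1b at 0.49 (log2). Not called were Nop16 at 0.44, Gnl2 and Ppan at 0.33 each, Gnl3l at 0.17, Brix1 at 0.15 and Gnl3 at -0.12.

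Among the other nucleolar proteins, Ddx21 and Mybbp1a were called higher in mitotic cells and Ncl, Npm1 and Lyar were not called. Ddx21 (chr10:62580251-62602281), an RNA helicase that acts on both RNA polymerase I and II transcription, had 640.2 and 584 CPM in mitotic cells, 709.9 and 725 CPM in early G1, 722 and 757 CPM in late G1, and 239 and 168 CPM in asynchronous cells. No group's values overlapped the asynchronous ones, and its change of 1.59 ± 0.17 (log2, a fold of 3.01, adjusted p = 3.89e-04) was the largest of the 58 genes. Ncl encodes nucleolin, an abundant protein of the nucleolus, and had 3241 and 3378 CPM in mitotic cells, 2931 and 2978 CPM in early G1, 2899 and 3012 CPM in late G1, and 2281 and 2948 CPM in asynchronous cells. Npm1 encodes nucleophosmin, which has roles in subunit export and nucleolar structure, and had 1008 and 1022 CPM in mitotic cells, 834 and 815 CPM in early G1, 872 and 899.9 CPM in late G1, and 976 and 1119 CPM in asynchronous cells. Asynchronous replicate 2 of Ncl reached the early G1 values, and asynchronous replicate 1 of Npm1 lay below both mitotic values. Their changes were 0.34 ± 0.14 and -0.05 ± 0.11 (log2, mitotic over asynchronous, adjusted p = 0.0765 and 0.767). Mybbp1a, a nucleolar partner of MYB proteins, changed by 0.53, and the nucleolar protein Lyar by -0.08. Npm1 has processed copies in the mouse genome that could share its reads, so its values are uncertain. Exons of 21 of the 58 genes overlap a gene on the opposite strand (among them Polr1a, Nop56, Dkc1, Nhp2, Heatr1, Bop1, Pes1, Noc2l, Gnl3 and Mybbp1a), and since strand handling during counting is not given in the sources used here, reads of the partners cannot be told apart.

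**Figure D3:**
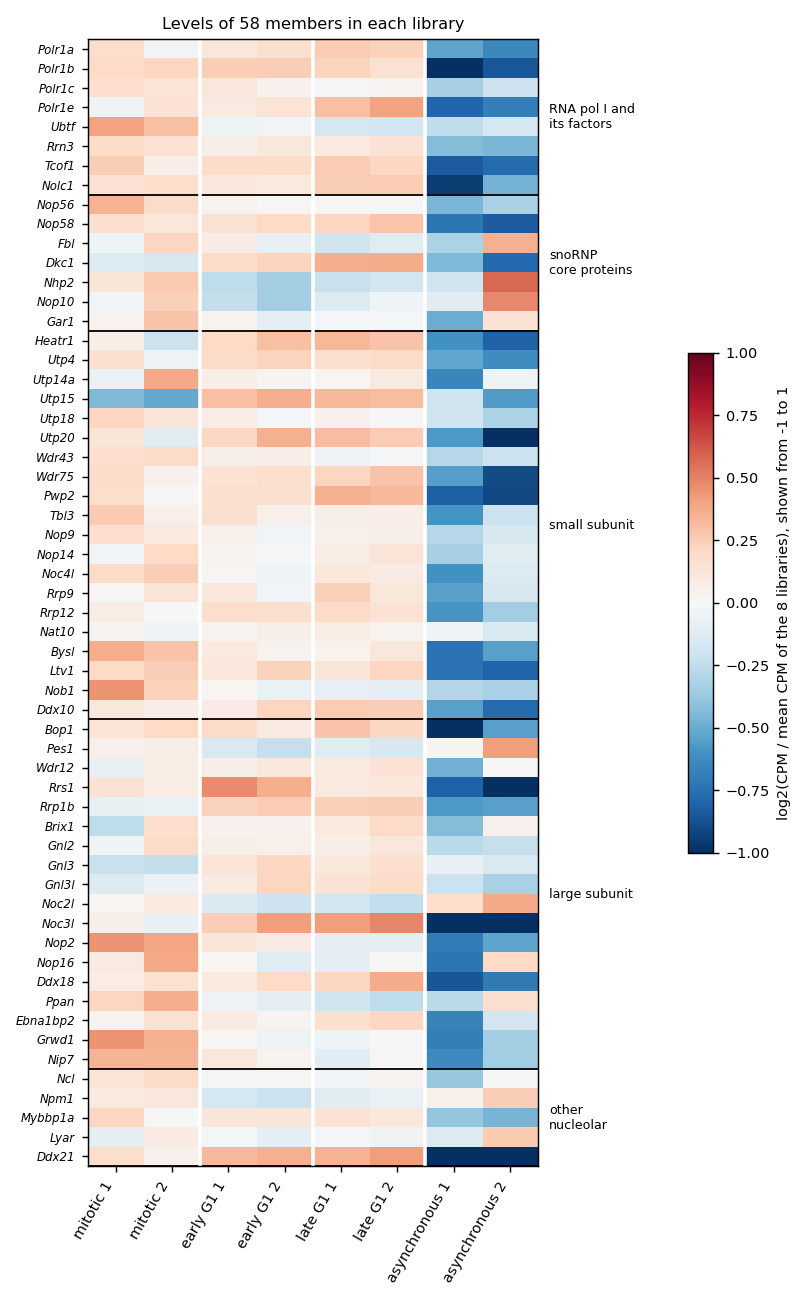
Level of each of the 58 genes (rows, grouped by role) in each of the 8 libraries (columns), as log2 of its CPM over its mean CPM in the 8 libraries, with the colour scale ending at -1 and 1. Blue dominates the 2 asynchronous columns, where 48 of 58 genes had their lowest mean, and Nhp2, Nop10, Pes1 and Fbl are red in asynchronous replicate 2.

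Of the 4 states, late G1 held the highest mean for 25 of the 58 genes, mitotic cells for 21, early G1 for 6 and asynchronous cells for 6. Asynchronous cells held the lowest mean for 48 genes, and the matching shares of all genes were not counted. The 6 with their highest mean in asynchronous cells were Nhp2, Nop10, Pes1, Noc2l, Npm1 and Lyar. An F test over the 4 states called 36 of the 58 genes, against 48.5% of all genes tested.

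The promoters shown were picked from those with a match to CACGTG or CCGGAAGT, in genes with large and with small changes. Ddx21, Noc3l and Polr1b had the largest changes (1.59, 1.42 and 1.14, log2, mitotic over asynchronous), and their promoters hold neither motif. The sequences are 250 bases upstream of the RefSeq gene start in GRCm38.p6, printed 5′ to 3′ on the gene's strand, with matches to CACGTG, the E-box that MYC proteins can bind, in capitals for Nop2 (chr6:125131633-125131882, plus strand) and Rrn3 (chr16:13780449-13780698, plus strand).
Nop2: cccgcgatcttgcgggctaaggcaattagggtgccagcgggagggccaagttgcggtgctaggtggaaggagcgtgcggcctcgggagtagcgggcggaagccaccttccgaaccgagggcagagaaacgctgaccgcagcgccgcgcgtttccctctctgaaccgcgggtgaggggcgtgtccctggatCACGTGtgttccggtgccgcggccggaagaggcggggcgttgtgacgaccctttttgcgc
Rrn3: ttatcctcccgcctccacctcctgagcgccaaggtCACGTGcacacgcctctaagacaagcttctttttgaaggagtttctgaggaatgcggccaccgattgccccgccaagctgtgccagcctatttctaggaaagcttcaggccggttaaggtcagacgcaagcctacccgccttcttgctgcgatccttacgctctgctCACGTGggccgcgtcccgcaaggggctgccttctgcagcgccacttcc
The match in Nop2 begins 60 bases before the start, and those in Rrn3 begin 215 and 48 bases before it. In the next 3 the capitals mark CCGGAAGT, a motif of ETS factors, or its reverse complement, for Ltv1 (chr10:13193138-13193387, minus strand), Pwp2 (chr10:78185150-78185399, minus strand) and Nhp2 (chr11:51619523-51619772, plus strand), the last a gene that was not called.
Ltv1: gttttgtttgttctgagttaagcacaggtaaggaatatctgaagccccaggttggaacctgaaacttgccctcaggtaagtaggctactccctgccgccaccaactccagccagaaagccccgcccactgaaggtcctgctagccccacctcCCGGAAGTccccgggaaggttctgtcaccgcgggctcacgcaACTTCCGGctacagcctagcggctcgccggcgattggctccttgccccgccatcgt
Pwp2: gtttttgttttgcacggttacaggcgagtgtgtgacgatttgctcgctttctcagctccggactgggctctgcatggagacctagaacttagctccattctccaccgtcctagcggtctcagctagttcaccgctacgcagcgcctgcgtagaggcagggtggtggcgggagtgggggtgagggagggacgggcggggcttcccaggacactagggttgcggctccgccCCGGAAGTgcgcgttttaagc
Nhp2: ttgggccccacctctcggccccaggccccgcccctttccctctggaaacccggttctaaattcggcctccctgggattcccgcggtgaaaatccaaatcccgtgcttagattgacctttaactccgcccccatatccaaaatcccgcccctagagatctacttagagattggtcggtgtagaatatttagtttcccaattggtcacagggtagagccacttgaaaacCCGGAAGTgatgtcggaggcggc
The matches begin 98 and 56 bases before the start in Ltv1, 21 in Pwp2 and 23 in Nhp2.

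RefSeq promoter windows, from 250 bases before to 50 after the start, were found for 49 of the 58 genes, and 5 motifs were searched on both strands. CCGGAAGT was present in 15 of 49 genes (30.6%), against 5.69% of 17492 genes with a window and 8.21% of the 11515 among them that were tested. CACGTG was present in 10 (20.4%), against 8.91% and 11.3%. CCAAT was present in 17 (34.7%), against 42.3% and 42.9%. TATAAA was present in 3 (6.12%: Ppan, Pes1 and Dkc1), against 14.8% and 9.16%. The palindromic consensus of NRF1 was in 0 of 49, against 1.47% and 2.14%. The median GC content was 59.5% over the 58 windows of the 49 genes and 56.3% over all 21263 windows, with some genes holding several windows. Of the 10 genes with CACGTG, 9 were higher in mitotic than asynchronous cells (median log2 change 0.62), and of the 39 without it, 23 were (median 0.49). A match describes letters in a window and is not a measure of binding.

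After release from the arrest, most of the 58 genes had no call. In early G1 against mitotic cells 1 of the 58 genes was called higher and 0 lower, against 3.21% and 1.42% of all genes tested, and the median change was -0.05 (log2). At an unadjusted p under 0.05, 5 were higher and 6 lower, while 4324 of the 19101 genes tested passed it in either direction. The gene called was Utp15 (chr13:98246845-98263041), the UTP-A protein that was not called in mitotic over asynchronous cells. It had 55.5 and 52.9 CPM in mitotic cells, 92.8 and 96.9 CPM in early G1, 94.7 and 93.3 CPM in late G1, and 65.6 and 50.9 CPM in asynchronous cells. The 4 G1 values lay well above both mitotic and both asynchronous values, with a change of 0.81 ± 0.14 (log2, early G1 over mitotic, adjusted p = 0.0229). Leaving out any of the 6 mitotic and G1 libraries ended that call, with the change between 0.77 and 0.91 over all 16 alternatives. Calls over all genes in this comparison also fell in each of those 6 fits, so the loss is not particular to Utp15.

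Marker lists of other cells moved in this comparison too: of 10 macrophage markers 7 were lower in early G1 than mitotic cells and of 14 feeder markers 4 were higher, and their part in the result was not tested. The fit on all 8 libraries shares 1 estimate of spread over groups whose spread differed. The same test on the mitotic and early G1 libraries alone called 4 genes higher and 5 lower, against 9.47% and 5.86% of all genes. Higher were Utp15 by 0.82, Gnl3 by 0.41, Dkc1 by 0.37 and Rrp1b by 0.33 (log2). Lower were Nhp2 at -0.48, Grwd1 at -0.41, Ubtf at -0.38, Ppan at -0.35 and Nop2 at -0.31. Gnl3, the nucleostemin GTPase of stem cells, had 249 and 247 CPM in mitotic cells, 317 and 335 CPM in early G1, 314 and 327 CPM in late G1, and 276 and 262 CPM in asynchronous cells. Its early G1 values stood above its mitotic values, which were the lowest of the 4 states (adjusted p = 0.0236 in the fit of those 2 groups, 0.0761 in the fit of all 8 libraries). Leaving out asynchronous replicate 1 gave 7 genes higher and 14 lower in early G1 than mitotic cells, against 12% and 10.3% of all genes in that fit. Leaving out asynchronous replicate 2 gave 8 higher and 14 lower, against 12.2% and 10.2% of all genes.

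Between late G1 and early G1, edgeR called 0 of the 58 genes in either direction, and 0% of all genes higher and 0% lower. At an unadjusted p under 0.05 there were 724 genes, 1 of them among the 58, Rrs1, and DESeq2 called 26 genes in all and 0 of the 58. The median change of the 58 genes was 0.01 (log2). With the 4 G1 libraries alone, 4 genes were higher and 2 lower in late than early G1, against 3.5% and 4.94% of all genes. Higher were Polr1e by 0.24, Nop10 by 0.21, Pwp2 by 0.18 and Dkc1 by 0.16. Lower were Rrs1 at -0.32 (adjusted p = 3.69e-04) and Nop2 at -0.20 (log2). Rrs1 had 93.5 and 89.1 CPM in mitotic cells, 117 and 109 CPM in early G1, 90.4 and 90.8 CPM in late G1, and 48.4 and 38.3 CPM in asynchronous cells. It peaked 1 h after release, and its late G1 values lay within the mitotic range, while its asynchronous values were lowest. Nop2 had 378 and 365 CPM in mitotic cells, 302 and 294 CPM in early G1, 259 and 259 CPM in late G1, and 171 and 192 CPM in asynchronous cells. Its 4 groups did not overlap and followed the order mitotic, early G1, late G1 and asynchronous.

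**Figure D4:**
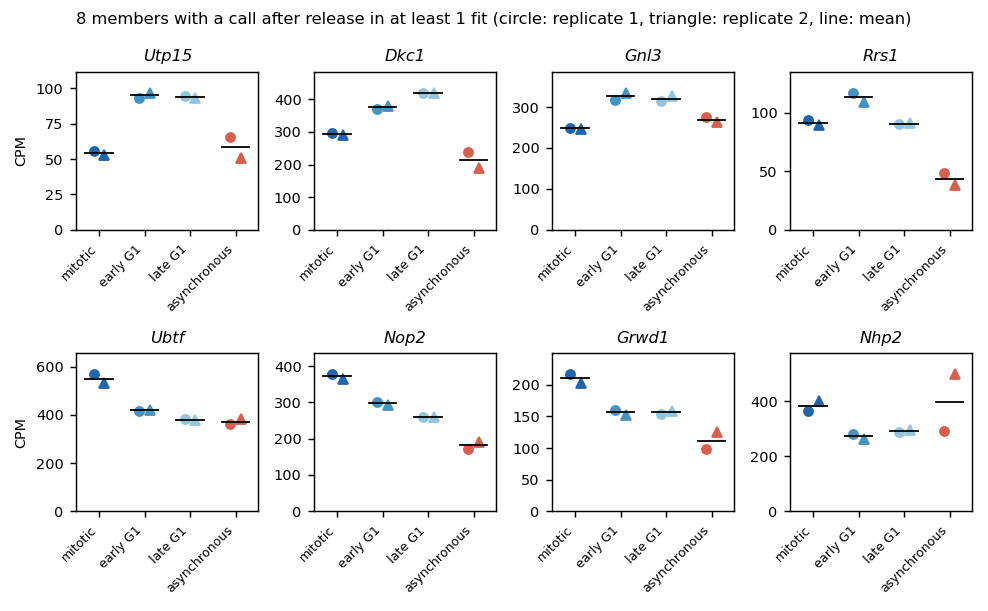
CPM of 8 genes in each library (circles replicate 1, triangles replicate 2, lines the mean of n = 2), with mitotic, early G1, late G1 and asynchronous cells from left to right and linear axes that start at 0. The upper genes have higher early G1 than mitotic means and the lower genes have lower ones: Utp15 averaged 94.8 CPM in early G1 and 54.2 CPM in mitotic cells, and Ubtf stood at 415 and 421 CPM in early G1 against 569 and 531 CPM in mitotic cells.

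Over the 3 h from arrest to late G1, 2 genes were called higher (Utp15 and Dkc1) and 2 lower (Ubtf and Nop2) in late G1 than mitotic cells, against 5.43% and 4.04% of all genes tested. Utp15 changed by 0.79 ± 0.14, Dkc1 by 0.51 ± 0.13, Ubtf by -0.53 ± 0.11 and Nop2 by -0.52 ± 0.11 (log2, late G1 over mitotic, adjusted p = 0.0158, 0.0475, 0.0222 and 0.0273). In all 4 genes the late G1 and mitotic values did not overlap. Each of the 4 calls was lost when any mitotic or G1 library was left out. Calls over all genes in this comparison also fell in each of those fits, so the loss is not particular to these 4 genes. With the mitotic and late G1 libraries alone 7 were higher and 7 lower, against 12.8% and 9.45% of all genes: the further ones were Noc3l, Heatr1, Gnl3, Rrp1b and Ddx21, which were higher, and Ppan, Nob1, Grwd1, Nhp2 and Nip7, which were lower. Without asynchronous replicate 1 there were 9 higher and 11 lower, against 14.2% and 13.3% of all genes, and without asynchronous replicate 2 there were 10 and 11, against 14.3% and 13.2%. DESeq2 called 2 higher and 4 lower, against 6.32% and 5.13%. Markers of other cells moved here too: 6 of 10 macrophage markers and 2 of 14 feeder markers were lower in late G1 than mitotic cells. The macrophage list summed to 279 and 267 CPM in late G1 against 323 and 341 CPM in mitotic cells. Of 10 pluripotent markers 3 (Sall4, Zfp42 and Esrrb) were lower, and that list summed to 5960.1 and 5999.9 CPM in late G1 against 6924 and 7228 CPM in mitotic cells. Their part in the result was not tested. Ppan, a factor of the large subunit, had 275 and 304 CPM in mitotic cells, 228 and 222 CPM in early G1, 206 and 199 CPM in late G1, and 197 and 266 CPM in asynchronous cells. It was highest in mitotic cells and lowest in late G1, apart from asynchronous replicate 1. Grwd1, a histone-binding protein of the large subunit pathway, had 217 and 204 CPM in mitotic cells, 160.2 and 153 CPM in early G1, 155 and 159 CPM in late G1, and 98.9 and 125 CPM in asynchronous cells. Its mitotic values were above all others and its G1 values overlapped each other.

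Against asynchronous cells, late G1 had 35 of the 58 genes called higher and 1 lower, compared with 22.7% and 26% of all genes, and the median change was 0.47 (log2). Early G1 had 34 higher and 3 lower, compared with 21.3% and 24.7%, with a median of 0.47. These comparisons and the mitotic one share the asynchronous libraries, so they are not independent. In all 3 states 30 of the 58 genes were called higher than asynchronous cells, and 14 were called in none of them. The matching shares of all genes were not counted, so whether these counts are unusual cannot be said. The largest rises in late G1 over asynchronous cells were Noc3l by 1.88 ± 0.22, Ddx21 by 1.86 ± 0.17, Pwp2 by 1.20 ± 0.12, Polr1b by 1.13 ± 0.12 and Utp20 by 1.10 ± 0.18 (log2, adjusted p between 1.69e-04 and 0.00207). In early G1 they were Ddx21 by 1.82 ± 0.17, Noc3l by 1.76 ± 0.22, Rrs1 by 1.38 ± 0.14, Polr1b by 1.18 ± 0.12 and Utp20 by 1.10 ± 0.18. Pwp2 had 181 and 159.6 CPM in mitotic cells, 179 and 179 CPM in early G1, 205 and 201 CPM in late G1, and 90.9 and 85.5 CPM in asynchronous cells. Its asynchronous values were under all others, and the late G1 values were the highest. Utp20, a large scaffold protein of the small subunit, had 247 and 208 CPM in mitotic cells, 261 and 289 CPM in early G1, 281 and 270.0 CPM in late G1, and 152 and 104 CPM in asynchronous cells. Its mitotic and early G1 values did not overlap and its 2 asynchronous values were the lowest but lay far apart.

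Noc2l was the gene called lower in late G1 than asynchronous cells, at -0.50 ± 0.12 (log2, adjusted p = 0.0093). In early G1 it was -0.45 ± 0.12, Pes1 was -0.43 ± 0.14 and Npm1 was -0.35 ± 0.11 (adjusted p = 0.0148, 0.0388 and 0.0353). Without asynchronous replicate 1, mitotic cells had 4 genes lower than asynchronous replicate 2 (Nhp2, Nop10, Pes1 and Noc2l). Early G1 then had 7 lower, those 4 with Fbl, Npm1 and Lyar, and late G1 had 8, the same 7 with Ppan. The shares of all genes lower in that fit were 26.6% for the mitotic, 28.4% for the early G1 and 29.3% for the late G1 libraries. Without asynchronous replicate 2, mitotic cells had 1 gene lower (Utp15), early G1 had 2 (Noc2l and Npm1) and late G1 had 1 (Noc2l), against 23.8%, 24.4% and 25.2% of all genes. In the fits of each state with asynchronous cells alone, 0 of the 58 genes were lower, against 12.7% of all genes for mitotic cells, 17.7% for early G1 and 19.8% for late G1. These fits called 24 genes higher for mitotic cells and 26 for each of the G1 states, against 8.55%, 13.1% and 15.7% of all genes. Under edgeR with all 8 libraries 0 of the 58 were lower in mitotic cells also at an unadjusted p under 0.05, and 5 were in early G1 and 2 in late G1. Of all 19101 genes, 9534, 10392 and 10709 passed it in either direction, in the same order.

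The 2 asynchronous libraries differed by gene length. Over the 58 genes the correlation of the logarithm of coding length with the difference of replicate 1 minus replicate 2 was 0.55 in asynchronous, 0.56 in mitotic, -0.55 in early G1 and 0.44 in late G1 libraries (Pearson, across genes, which are not independent replicates). Over 9208 protein-coding genes with a mean of at least 10 CPM it was 0.47, 0.31, -0.44 and 0.26. The correlation of coding length with the log2 change, mitotic over asynchronous, was 0.36 over the 58 genes and 0.11 over the 9208. All of these points share the same libraries. The 37 genes called higher in mitotic cells had a median coding length of 2058 bp and the 21 not called had 1425 bp. Of 20 genes under 1500 bp, 9 were called and 17 were lower in asynchronous replicate 1 than in replicate 2. Of 38 longer genes, 28 were called and 20 were lower in replicate 1. The part of length in the calls was not tested.

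**Figure D5:**
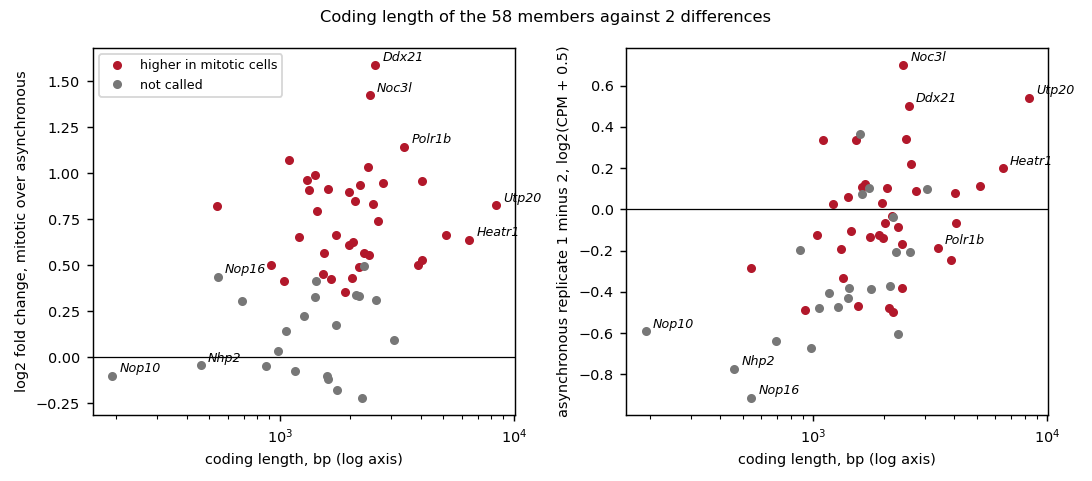
Coding length in bp (log axis) of the 58 genes against their log2 fold change, mitotic over asynchronous (left), and against asynchronous replicate 1 minus replicate 2 in log2(CPM + 0.5) (right), with red points for the 37 genes called higher in mitotic cells and grey for the 21 not called. The short genes Nop10 and Nhp2 lie at the lower left of both panels, and long ones such as Utp20 and Heatr1 lie at the right above 0.

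Other genes of the pathway were counted in the same fit. Their lists were chosen with earlier results of these data known, so they are not independent support. Among 15 other genes of the RNA polymerase I machinery, 5 were higher and 1 lower in mitotic than asynchronous cells (median log2 change 0.40). That is 33.3% and 6.67%, against 18.3% and 22.4% of all genes tested. Those higher were Taf1a, Taf1c and Taf1d, subunits of the factor that selects the ribosomal promoter, at 1.13, 1.03 and 0.51, the terminator protein Ttf1 at 0.80 and the polymerase subunit Twistnb at 0.62. The lower one was Polr2e at -0.77, a subunit shared by all 3 polymerases. Taf1a had 41.4 and 44.6 CPM in mitotic cells, 39.8 and 39.2 CPM in early G1, 35.9 and 35.1 CPM in late G1, and 18.5 and 20.8 CPM in asynchronous cells. Taf1d had 157 and 160.2 CPM in mitotic cells, 238 and 265 CPM in early G1, 252 and 249 CPM in late G1, and 114 and 108 CPM in asynchronous cells. Taf1a was not called between mitotic and G1 cells, while Taf1d was called higher in early G1 than mitotic cells by 0.67 (log2, adjusted p = 0.0191), and both were lowest in asynchronous cells. Of 95 other ribosome assembly factors tested, 53 (55.8%) were higher and 1 (1.05%), Nop53, lower in mitotic cells (median 0.48). The smallest p belonged to Wdr46 at 1.63, Imp4 at 1.25 and Znhit3 at 1.30. Wdr46, a scaffold of the early small subunit, had 143 and 132 CPM in mitotic cells, 159.6 and 143 CPM in early G1, 162 and 156 CPM in late G1, and 42.7 and 46.2 CPM in asynchronous cells. In late G1 52 of these 95 were higher and 5 lower than asynchronous cells, and in early G1 52 were higher and 3 lower. Of all genes tested 22.7% were higher and 26% lower in late G1, and 21.3% and 24.7% in early G1. After release 1 of the 95 factors (1.05%) was called higher in early G1 than mitotic cells, against 3.21% of all genes. It was Dimt1, which methylates 18S RNA (1.57, adjusted p = 0.0217). Of 22 genes for RNA polymerase III, which makes 5S RNA and transfer RNA, 5 (22.7%) were called higher in mitotic than asynchronous cells and 0 lower. That share is near the 18.3% of all genes called higher, and the median change of the 22 genes was 0.18. All 5 were polymerase subunits (Polr3a, Polr3c, Polr3d, Polr3e and Polr3g).

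Genes for the proteins of the ribosome itself were mostly lower or not called. Of 86 tested, 2 (2.33%) were higher and 43 (50%) lower in mitotic than asynchronous cells, with a median change of -0.63 (log2). Of all genes tested 18.3% were higher and 22.4% lower. Their summed level was 28681 and 30320 CPM in mitotic cells, 24932 and 23033 CPM in early G1, 24201 and 25504 CPM in late G1, and 36721 and 49877 CPM in asynchronous cells. Both asynchronous libraries were above the other 6, and replicate 2 was far above replicate 1. In late G1 4 (4.65%) were higher and 51 (59.3%) lower than asynchronous cells, against 22.7% and 26% of all genes. In early G1 3 (3.49%) were higher and 55 (64%) lower, against 21.3% and 24.7% of all genes. The smallest p in all 3 states among the lower ones belonged to Rpl12, which had 214 and 200.4 CPM in mitotic cells, 203 and 190.3 CPM in early G1, 210.1 and 206 CPM in late G1, and 444 and 532 CPM in asynchronous cells. These genes are short and have many processed copies, so their values are uncertain.

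Of 10 genes of the MYC family and its partners, which can bind E-boxes at ribosome genes, Myc, Mycn and Mycl were higher and Mxd3 lower in mitotic than asynchronous cells. That is 30% and 10%, against 18.3% and 22.4% of all genes tested. Myc had 21.5 and 12.9 CPM in mitotic cells, 43.5 and 41.3 CPM in early G1, 40.0 and 36.2 CPM in late G1, and 3.46 and 1.06 CPM in asynchronous cells. Its asynchronous values were the lowest and its G1 values the highest, and mitotic cells exceeded asynchronous cells by 2.88 ± 0.44 (log2, adjusted p = 0.0018). Mycn had 103 and 118 CPM in mitotic cells, 149 and 144 CPM in early G1, 113 and 102 CPM in late G1, and 61.6 and 52.9 CPM in asynchronous cells. It was lowest in asynchronous cells and highest in early G1, with a mitotic change of 0.95 ± 0.13 (log2, adjusted p = 0.00131). None of the 10 was called between mitotic, early G1 and late G1 cells.

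Of the 58 genes, 7 carry small nucleolar RNA genes inside their span in the GENCODE M21 annotation, 21 in all: Nop56 with 5, Nop58 with 4, Wdr43, Gnl3 and Ncl with 3 each, Ppan with 2 and Dkc1 with 1. That is 12.1% of the 58 genes, against 1.64% of 14739 protein-coding genes tested. Of these 7 hosts, Nop56, Nop58, Wdr43 and Dkc1 were called higher in mitotic than asynchronous cells and Gnl3, Ncl and Ppan were not.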

How the data were processed

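The 8 libraries were made from poly(A) RNA with a kit that keeps strand, per the labels' protocols. The deposited table holds whole-number counts for each Ensembl gene, with no normalisation. TopHat2, SAMtools, HTSeq and mm10 are named without versions or roles, per the submitters' processing notes. The annotation release is not given in the sources used here, and neither is strand handling during counting. Symbols and coordinates (1-based, GRCm38) come from GENCODE M21, which matched 54809 of 54838 IDs, and promoter sequences from RefSeq (GRCm38.p6).

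Counts were analysed with edgeR 4.0.16 in R 4.3.3. Genes were filtered with filterByExpr (minimum count 10), libraries were scaled by TMM, and a robust quasi-likelihood model was fitted to the 4 groups over all 8 libraries with 4 residual degrees of freedom and no replicate block. Tests were two-sided, with Benjamini-Hochberg adjustment over the 19101 genes of a comparison and a threshold of 0.05. Means carry n = 2 libraries a state. DESeq2 1.42.0, 2 other scalings, no filter, fits of 2 groups alone, a replicate block, a covariate marking mitotic replicate 1 and asynchronous replicate 1, and fits with libraries left out were the alternatives. Rows without a gene name were not found in the table.

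The members and lists were chosen with earlier results of these data known. Described in full are the RNA polymerase I genes, the snoRNP core genes, Ncl, Npm1 and, in each comparison, the 5 largest rises and falls called and genes called against the main direction. Other genes are named by role, and the genes of the other lists by smallest p. Lists of feeder fibroblast, macrophage and pluripotent cell markers, other RNA polymerase I machinery, other ribosome assembly factors, RNA polymerase III machinery, ribosomal proteins and MYC family regulators were counted in the same fit.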

Additional observations from a re-analysis of the deposited data

How the results depend on the processing

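Alternatives that changed the test, the scaling or the filter left the counts of the 58 genes against asynchronous cells within 1.5 times, with few exceptions. DESeq2 called 38 higher and 0 lower in mitotic than asynchronous cells, 4 lower in late G1 than mitotic cells and 1 lower in early G1 than asynchronous cells. Over all genes it called 3495 higher and 3680 lower of 20416, 945 lower of 18413 and 4145 lower of 21751, in the same order. Scaling by library totals gave 1 higher in late G1 than mitotic cells and 2 lower in late G1 than asynchronous cells, against 995 and 4870 of all 19101 genes. With no filter 1 was lower in early G1 than mitotic cells and 2 were lower in late G1 than asynchronous cells. That fit called 822 and 5305 of 34436 genes lower in these comparisons. Fits of the 2 groups alone gave 24 higher in mitotic than asynchronous cells, 4 higher and 5 lower in early G1 than mitotic cells, 4 and 2 in late G1 than early G1, 7 and 7 in late G1 than mitotic cells, and 0 lower in either G1 group than asynchronous cells.

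A covariate marking mitotic replicate 1 and asynchronous replicate 1 was added to the fit. It gave 45 higher and 1 lower in mitotic than asynchronous cells, against 5219 and 5798 of all 19101 genes. In early G1 against mitotic cells it gave 9 higher and 15 lower, against 3242 and 2640 of all genes. In late G1 against mitotic cells it gave 9 and 13, against 3488 and 3105. Lower than asynchronous cells were 7 in late G1 and 6 in early G1, against 6091 and 5958 of all genes. Leaving out both of those libraries gave 5 lower in mitotic than asynchronous cells, 13 and 20 in early G1 than mitotic cells, 4 and 2 in late G1 than early G1, 17 and 19 in late G1 than mitotic cells, 9 lower in late G1 and 10 lower in early G1 than asynchronous cells, and 56 genes in the F test over the 4 groups. There Nop16 reversed to -0.25 in late G1 and -0.25 in early G1 over asynchronous cells and Gar1 to -0.17 in early G1. Nhp2 reversed to 0.39 in mitotic over asynchronous cells without asynchronous replicate 2 and was -0.37 without asynchronous replicate 1. The cause was not tested.

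Leaving out 1 library at a time gave between 27 and 48 higher and between 0 and 4 lower in mitotic than asynchronous cells, between 0 and 8 and between 0 and 14 in early G1 than mitotic cells, 0 and 0 in late G1 than early G1, between 0 and 10 and between 0 and 11 in late G1 than mitotic cells, between 25 and 45 and between 0 and 8 in late G1 than asynchronous cells, between 23 and 45 and between 0 and 7 in early G1 than asynchronous cells, and between 30 and 53 in the F test. The number of calls over all genes also changed from fit to fit. A lone library was assumed to vary like the other groups. Called under all 16 alternatives were 23 of 37 genes for mitotic, 25 of 36 for late G1 and 23 of 37 for early G1 against asynchronous cells, 0 of 1 for early G1 and 0 of 4 for late G1 against mitotic cells.

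The labels do not tie same-numbered libraries together, so the main test had no block. Deviations of same-numbered libraries from their group means correlated by 0.64 between mitotic and asynchronous, -0.18 between early G1 and mitotic, -0.44 between early G1 and asynchronous, 0.08 between late G1 and mitotic, 0.06 between late G1 and asynchronous and -0.06 between late G1 and early G1 libraries (10030 genes). With the replicate block 36 genes were higher in mitotic than asynchronous cells and 1 was higher in late G1 than mitotic cells, and the other counts stayed within 1.5 times. With 2 libraries a group, small changes are hard to call, and the coefficient of variation of the asynchronous libraries limits every comparison with them. Their spread also enters the shared estimate behind the comparisons of mitotic and G1 cells in the main fit.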
